A study of Mus musculus with 9 samples.

Results

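Annexins are a family of cytosolic proteins that bind negatively charged membrane phospholipids when calcium rises, through a conserved core of repeats, and differ mainly in their N-terminal tails. They are known for roles in granule fusion, membrane repair, the resolution of inflammation and the recognition of dying cells. In neutrophils, the short-lived phagocytes made in the bone marrow, annexin A1 is an abundant cytosolic and granule protein that is released on activation and signals through formyl peptide receptors to limit recruitment. The 8 genes examined were Anxa1, Anxa2, Anxa3, Anxa4, Anxa5, Anxa6, Anxa7 and Anxa11, a set fixed by gene name. Of these, 7 were among the 7197 genes of the deposited table. Anxa4 was not listed, nor were any of 4 further annexins looked for, Anxa8, Anxa9, Anxa10 and Anxa13. Every listed gene had reads in at least 7 libraries, and the filter that chose the genes is not given. The absence of a gene from the table is thus no measurement of 0.

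The neutrophils were sorted as CD45+ CD11b+ Ly6G+ cells from bone marrow of mice aged 2 months, and 3′-end libraries were made from their RNA. The study asked whether neutrophils that carry an active form of RagC, a subunit of the Rag GTPases that report amino acid supply to the growth kinase complex mTORC1, differ by themselves from wild-type ones. There were 5 libraries of wild-type mice (Rragc+/+, labelled RagC S74N (+/+)) and 4 of mice heterozygous for a knock-in allele (RragcS74N/+, labelled RagC S74N (KI/+)), in which serine is replaced by asparagine in the endogenous gene. The edit is in the germline and in every cell, so an effect in the neutrophils and an effect of the surrounding animal cannot be told apart. No treatment was given. The labels give neither the sex of the mice nor a batch, and do not say in words that each library is 1 mouse. If libraries of a group are not from separate mice, their spread is partly technical.

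Levels are given as normalized counts, which are reads per gene divided by 1 size factor per library. Reads recovered over the listed genes ranged from 1214295 to 1973957 per library. All 10 neutrophil markers sought were listed, with summed levels of 126915 to 191664 normalized counts in Rragc+/+ and 118998 to 212453 in RragcS74N/+, and Ly6g itself measured 2036 to 4066. Rragc, whose edit changes the protein and not necessarily the amount of transcript, ranged from 51.8 to 87.6 over the 9 libraries. Rragc+/+ replicate 2 stood apart from the others on the first principal component, which held 51.5% of the variance of the 1000 most variable genes, and several results below are given with and without it. It was also the library with the fewest recovered reads, 1214295. In it 14 listed genes were at 0, against 1 to 6 in the other libraries. The part of this lower depth in the results was not tested.

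Promoters are shown for Anxa1, Anxa2 and Anxa11, members whose levels moved together or against each other across libraries. Their upstream sequence can thus be read beside those levels. Anxa6 moved with Anxa2 and Anxa11 too, but could not be shown. RefSeq entries of mouse build GRCm38.p6, which is not the build to which the authors aligned, were at hand for 5 of the 7 listed members, and Anxa3 and Anxa6 had none. Each sequence below is the 250 bases before the annotated start, read 5′ to 3′ on the gene's strand, and capitals mark matches to the motifs searched. The Anxa1 window lies at chr19:20390672-20390921 on the minus strand, that of Anxa2 at chr9:69453433-69453682 on the plus strand and that of Anxa11 at chr14:25841905-25842154 on the plus strand.
Anxa1: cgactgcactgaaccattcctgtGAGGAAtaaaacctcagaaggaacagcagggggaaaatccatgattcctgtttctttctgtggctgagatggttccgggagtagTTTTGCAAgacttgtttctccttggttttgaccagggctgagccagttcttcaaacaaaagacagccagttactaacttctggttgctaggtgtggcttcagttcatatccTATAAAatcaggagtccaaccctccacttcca
Anxa2: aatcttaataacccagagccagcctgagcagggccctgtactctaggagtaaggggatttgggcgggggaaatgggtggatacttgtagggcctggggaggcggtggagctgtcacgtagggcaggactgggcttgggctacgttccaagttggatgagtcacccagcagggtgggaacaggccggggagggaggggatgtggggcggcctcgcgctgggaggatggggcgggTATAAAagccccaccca
Anxa11: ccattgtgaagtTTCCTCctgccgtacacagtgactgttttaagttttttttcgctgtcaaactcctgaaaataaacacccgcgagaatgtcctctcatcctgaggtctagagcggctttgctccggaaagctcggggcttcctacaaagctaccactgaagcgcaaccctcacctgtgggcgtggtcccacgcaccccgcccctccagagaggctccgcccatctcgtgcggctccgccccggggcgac
The motifs searched, on both strands, were the TATA box (TATAAA), the core of sites for the myeloid factor PU.1 (GAGGAA), a C/EBP site (TTGCNNAA) and the CLEAR core bound by TFEB (CACGTG), a factor that mTORC1 holds in the cytoplasm. A TATA box began 32 bases before the start of Anxa1 and 17 bases before that of Anxa2, and none was found in the Anxa11 window. In the same 250-base window, 12.4% of 32851 promoters held TATAAA on either strand, and 2.63% held it on the gene's own strand within the last 50 bases. The Anxa1 window also held a PU.1 core at 227 bases and a C/EBP match at 143 bases before the start, and the Anxa11 window a PU.1 core on the opposite strand at 238 bases. PU.1 cores were found in 23.2% of promoters and C/EBP matches in 9.56%. Of the members with an entry, Anxa7 alone held a CLEAR core, 113 bases before the start of 1 of its 2 entries, against 6.02% of all promoters. These matches describe letters and not binding.

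The family was led by Anxa1 and Anxa2. Averaged over the 9 libraries, Anxa1 measured 2980 normalized counts and was the 39th most abundant of all listed genes, and Anxa2 measured 2078 and was the 72nd. Anxa3 followed with 396, Anxa11 with 297, Anxa5 with 118, Anxa6 with 61.5 and Anxa7 with 59.5. A 3′-end library yields reads from transcript ends whatever the length, so these levels were not divided by length. Division by the length of the transcript in kilobases left the order as it was, from 1780 normalized counts per kilobase for Anxa1 to 20.5 for Anxa7. Not every step of the order held in single libraries. Anxa1 exceeded Anxa2 in 6 of 9 libraries, Anxa3 exceeded Anxa11 in 7, and Anxa6 exceeded Anxa7 in 4, so these neighbours were not set apart beyond their spread. The steps from Anxa2 to Anxa3, from Anxa11 to Anxa5 and from Anxa5 to Anxa6 held in 9 of 9.

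**Figure D1:**
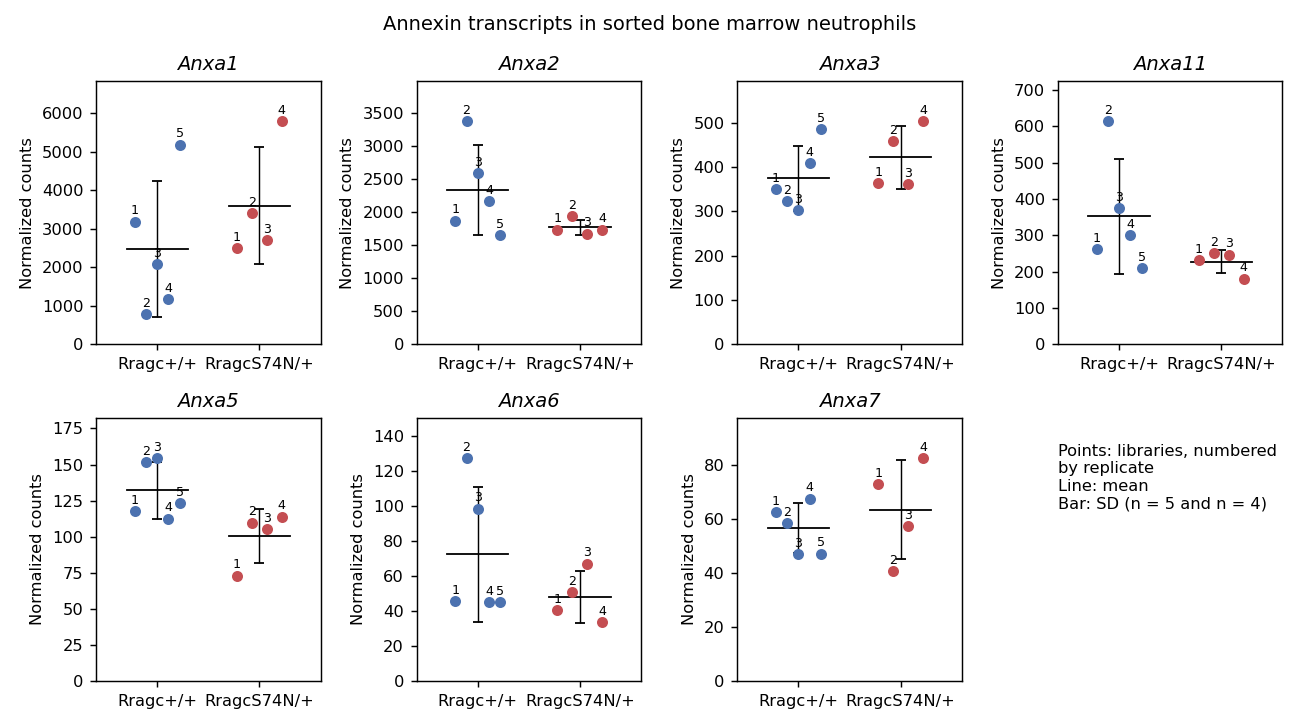
Normalized counts of the 7 listed annexins (vertical axes, each from 0) in the 5 Rragc+/+ (blue) and 4 RragcS74N/+ (red) libraries, numbered by replicate, with the mean as a line and the SD as a bar. The genotypes overlap for every gene, and Rragc+/+ replicate 2 holds the lowest Anxa1 value, 789, and the highest Anxa2, Anxa11 and Anxa6 values.

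Whether the knock-in changed annexin transcripts was asked first. No listed member passed the test: 0 of 7 had an adjusted p-value under 0.05 in limma (Benjamini-Hochberg over the 6673 genes with a mean of at least 10), as did 0% of all genes tested. At an unadjusted p under 0.05 in limma the count was 0 of 7, against 5.81% of all genes, and edgeR and DESeq2 on the recovered reads also gave 0 of 7 after adjustment and 1 of 7, Anxa11, before it, where they called 6.89% and 6.7% of all genes. The genotypes overlapped for all 7 members, while they did not overlap for 1.69% of genes. Mean log2 levels were higher in RragcS74N/+ for Anxa1, Anxa3 and Anxa7 and lower for Anxa2, Anxa11, Anxa5 and Anxa6. The median log2 difference of the members was -0.35, beside 0.02 over all genes tested, and the median size of the difference regardless of sign was 0.40 beside 0.21. Without Rragc+/+ replicate 2 these medians were -0.21 beside 0.02 and 0.24 beside 0.16, and after correction for GC content at 3′ ends -0.19 beside 0.01 and 0.22 beside 0.18. All differences below are RragcS74N/+ minus Rragc+/+ on the log2(normalized count + 1) scale, which understates the change of low genes, with p-values from limma.

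Anxa1 encodes the glucocorticoid-induced annexin that restrains phospholipase A2 and neutrophil recruitment, and it was the most variable member. It measured 3185, 789, 2072, 1171 and 5187 normalized counts in Rragc+/+ replicates 1 to 5. In RragcS74N/+ replicates 1 to 4 it measured 2497, 3416, 2702 and 5797. The lowest values, in Rragc+/+ replicates 2 and 4, and the second highest, in Rragc+/+ replicate 5, belonged to the same genotype, so the wild-type libraries spanned nearly the whole range. The means were 2481 ± 1772 (SD, n = 5) and 3603 ± 1515 (SD, n = 4), and the log2 difference of 0.77 ± 0.45 (SE) had a 95% interval of -0.20 to 1.73 (limma, adjusted p = 0.713). Without Rragc+/+ replicate 2 the difference was 0.43, and without Rragc+/+ replicate 5 it was 1.11.

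The spread of Anxa1 was far above counting error. Its highest library was 7.35-fold above its lowest, on 675 to 5547 reads, and its coefficient of variation was 56.0% where the read numbers alone would give 2.12%. The latter figure takes each read as a separate molecule. Whether copies of a molecule were collapsed is not given, so counting error may be understated. Its SD within genotypes, 0.90 on the log2 scale, was larger than in 98.8% of the genes averaging 50 or more, for which the median SD was 0.31. Anxa6 was the next most variable member, with an SD of 0.61 and 94.4% of these genes below it. The SDs of Anxa3 and Anxa5, 0.26 and 0.25, lay under the median of genes at such levels.

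Anxa2 encodes the annexin that pairs with S100A10 at membranes and binds plasminogen at the cell surface. It measured 1868, 3370, 2585, 2162 and 1653 normalized counts in Rragc+/+ replicates 1 to 5 and 1730, 1935, 1671 and 1731 in RragcS74N/+ replicates 1 to 4. The mutant libraries lay close together, near the bottom of the wild-type range, and Rragc+/+ replicates 2, 3 and 4 lay above all 4 of them. The means were 2328 ± 679 (SD, n = 5) and 1767 ± 115 (SD, n = 4), and the log2 difference was -0.35 ± 0.20 (SE), with a 95% interval of -0.78 to 0.07 (limma, adjusted p = 0.713). Without Rragc+/+ replicate 2 the difference was -0.21, and after correction for GC content at 3′ ends, described further on, it was -0.19.

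Anxa11 encodes the annexin with the longest N-terminal tail, which binds the calcium sensors ALG-2 and S100A6 and tethers RNA granules to membranes. It measured 262, 615, 376, 299.8 and 209 normalized counts in Rragc+/+ replicates 1 to 5 and 232, 250.1, 247 and 181 in RragcS74N/+ replicates 1 to 4. Its order of libraries resembled that of Anxa2: Rragc+/+ replicates 2, 3 and 4 were again the highest. The means were 352 ± 159 (SD, n = 5) and 227 ± 32.1 (SD, n = 4), with a log2 difference of -0.54 ± 0.26 (SE) and a 95% interval of -1.10 to 0.02 (limma, adjusted p = 0.713). Without Rragc+/+ replicate 2 the difference was -0.31.

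Anxa5, the phosphatidylserine-binding annexin used as a probe of dying cells, came closest to the unadjusted threshold. It measured 118, 152, 155, 112 and 123 normalized counts in Rragc+/+ replicates 1 to 5 and 72.9, 110, 105 and 114 in RragcS74N/+ replicates 1 to 4. The genotypes met at 1 point, where RragcS74N/+ replicate 4 lay just above Rragc+/+ replicate 4. The means were 132 ± 19.8 (SD, n = 5) and 100.5 ± 18.7 (SD, n = 4), and the log2 difference of -0.40 ± 0.19 (SE) had a 95% interval of -0.80 to 0.004 (limma, adjusted p = 0.713). Of the 7 members it had the smallest p before adjustment, and without RragcS74N/+ replicate 1 its difference was -0.25.

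Anxa6 encodes an annexin with a duplicated core that acts in endosomes and cholesterol transport. It measured 45.4, 127, 98.4, 45.0 and 45.1 normalized counts in Rragc+/+ replicates 1 to 5 and 40.5, 50.8, 67.0 and 33.4 in RragcS74N/+ replicates 1 to 4. Rragc+/+ replicates 2 and 3 held the high values and the other 3 wild-type libraries fell among the mutant ones. The log2 difference was -0.48 ± 0.33 (SE, limma, adjusted p = 0.724), and -0.24 without Rragc+/+ replicate 2.

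Anxa3, an annexin known from neutrophil granules and phagosomes, measured 351, 324, 304, 409 and 486 normalized counts in Rragc+/+ replicates 1 to 5 and 363, 458, 362 and 504 in RragcS74N/+ replicates 1 to 4. Like Anxa1 it was highest in RragcS74N/+ replicate 4 and Rragc+/+ replicate 5. The means were 375 ± 73.9 (SD, n = 5) and 422 ± 70.8 (SD, n = 4), with a log2 difference of 0.18 ± 0.18 (SE, limma, adjusted p = 0.777) that was 0.09 without RragcS74N/+ replicate 4 and 0.28 without Rragc+/+ replicate 5. Anxa7, also called synexin and first described as a factor that joins chromaffin granules, measured 62.6, 58.4, 46.9, 67.5 and 47.1 in Rragc+/+ replicates 1 to 5 and 72.9, 40.7, 57.2 and 82.6 in RragcS74N/+ replicates 1 to 4. The mutant libraries held both its highest and its lowest value, and its log2 difference of 0.13 ± 0.22 (SE, limma, adjusted p = 0.862) turned to -0.01 without RragcS74N/+ replicate 4.

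**Figure D2:**
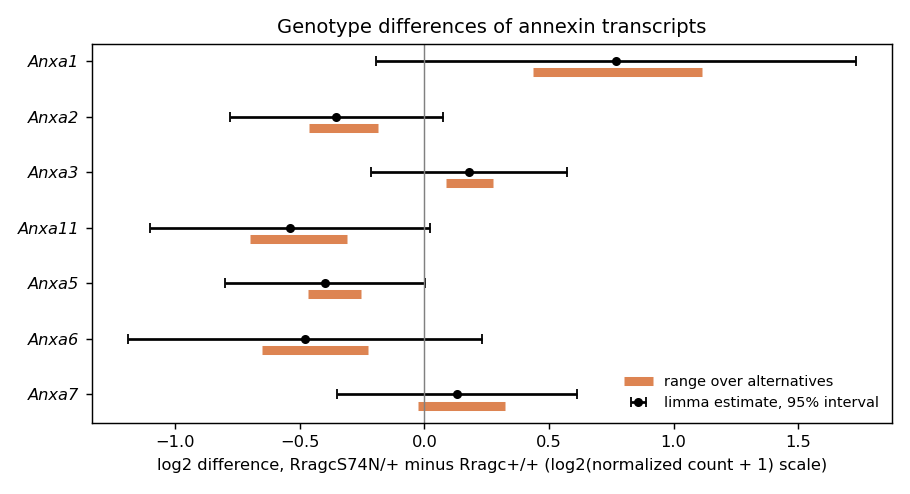
Log2 difference of each annexin, RragcS74N/+ minus Rragc+/+, on the log2(normalized count + 1) scale (horizontal axis), with its 95% interval from limma (black) and the range of the estimate over 18 alternative analyses (orange). All 7 intervals include 0, and the estimate of Anxa7 changed sign among the alternatives.

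The share of all recovered reads taken by the annexins differed between genotypes by less than the spread between libraries, while the mix within it varied widely from library to library. The 7 genes together took from 0.339% (Wilson 95% interval 0.330% to 0.348%) of reads in Rragc+/+ replicate 4 to 0.559% (0.546% to 0.571%) in Rragc+/+ replicate 5. The intervals cover counting error alone, with each read taken as a separate molecule. Wild-type libraries averaged 0.430% ± 0.0833 (SD, n = 5) and mutant libraries 0.455% ± 0.0701 (SD, n = 4), a difference of 0.0248 percentage points that was smaller than either SD. With Anxa1 left out the shares were 0.246% ± 0.0551 (SD, n = 5) and 0.195% ± 0.0134 (SD, n = 4), so the sign of the difference turned on Anxa1. Anxa1 supplied 14.5% of annexin reads in Rragc+/+ replicate 2 and 68.7% in RragcS74N/+ replicate 4. The ratio of Anxa1 to Anxa2 was 1.71, 0.234, 0.802, 0.542 and 3.14 in Rragc+/+ replicates 1 to 5 and 1.44, 1.77, 1.62 and 3.35 in RragcS74N/+ replicates 1 to 4. It was under 1 in 3 wild-type libraries and above 1 in the other 6 libraries of both genotypes.

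**Figure D3:**
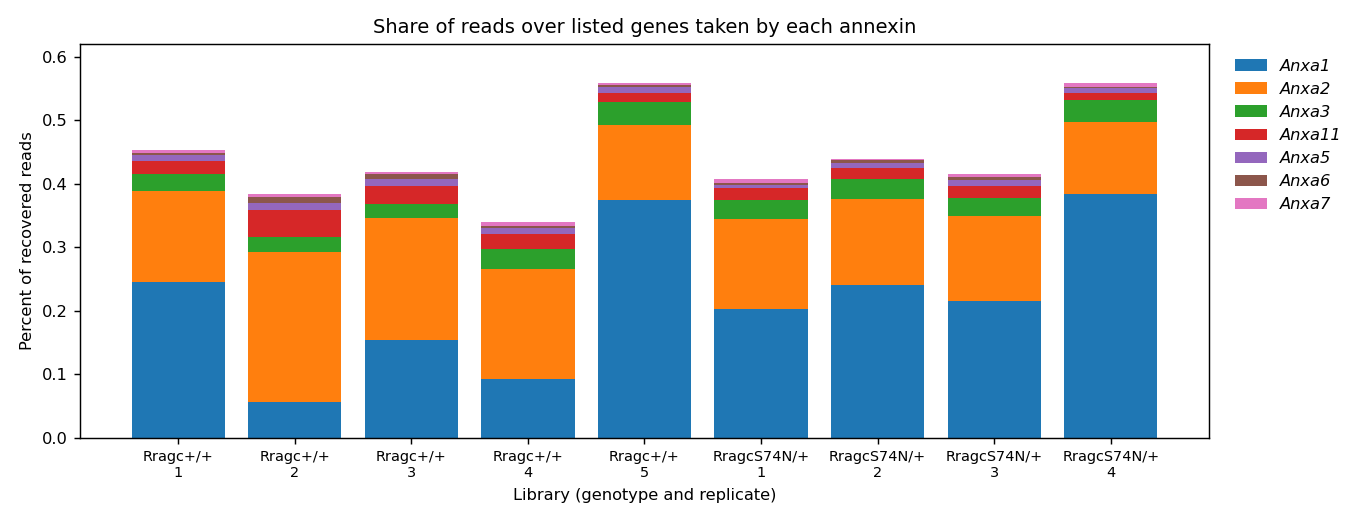
Percent of the reads over listed genes that each annexin took (stacked bars, from 0) in each of the 9 libraries. Anxa1 (blue) and Anxa2 (orange) make up most of every bar, and Anxa2 exceeds Anxa1 only in Rragc+/+ replicates 2, 3 and 4.

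How the members varied with one another was then measured over the 9 libraries, with Pearson's r on log2(normalized count + 1) and exact two-sided permutation tests over all pairings, adjusted over the 21 pairs. The family fell into members that rose together and members that moved against them. Anxa2 and Anxa11 had an r of 0.96 (exact permutation, adjusted p = 0.00625) with a Spearman's rho of 0.87, and Anxa11 and Anxa6 had an r of 0.90 (exact permutation, adjusted p = 0.0121). Anxa1 ran opposite to Anxa11, with an r of -0.88 (exact permutation, adjusted p = 0.0121) and a rho of -0.83, and opposite to Anxa2, with an r of -0.82 (exact permutation, adjusted p = 0.0435) and a rho of -0.67. The fifth pair past the threshold was Anxa2 with Anxa6, with an r of 0.84 (exact permutation, adjusted p = 0.0435). By Spearman's rho 0 of 21 pairs passed after adjustment in the exact permutation test, the smallest adjusted p being 0.0868. Anxa3 sided with Anxa1, at an r of 0.66 with it and -0.73 with Anxa11, but neither passed (exact permutation, adjusted p = 0.108 and 0.0608). Without Rragc+/+ replicates 2 and 4, the libraries farthest from the Anxa1 median, r of Anxa1 with Anxa3 was 0.92. Without Rragc+/+ replicate 5 and RragcS74N/+ replicate 4, the farthest for Anxa3, r of Anxa3 with Anxa11 was -0.56. These values are given with no test. By Pearson's r, Anxa7 followed no member beyond -0.42, its value with Anxa6. That pair had a rho of -0.70, which did not pass (exact permutation, adjusted p = 0.130). Its r was -0.58 without Rragc+/+ replicates 2 and 3, the libraries farthest from the Anxa6 median.

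These relations leaned on a few libraries to different degrees. With the 2 libraries farthest from the median of the first gene left out, r was -0.84 for Anxa1 with Anxa11, 0.74 for Anxa2 with Anxa11, -0.58 for Anxa1 with Anxa2 and 0.51 for Anxa11 with Anxa6. For Anxa2 with Anxa6 it was -0.05, so that relation rested on Rragc+/+ replicates 2 and 3. Without Rragc+/+ replicate 2 alone, 0 of 21 pairs passed after adjustment, although r remained 0.89 for Anxa2 with Anxa11 and -0.78 for Anxa1 with Anxa11 (exact permutation, adjusted p = 0.0563 and 0.142). Without RragcS74N/+ replicate 4, 1 pair passed, and without Rragc+/+ replicate 1, 3 or 5 or RragcS74N/+ replicate 2, 3 pairs did. Each genotype held too few libraries for a value of its own.

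**Figure D4:**
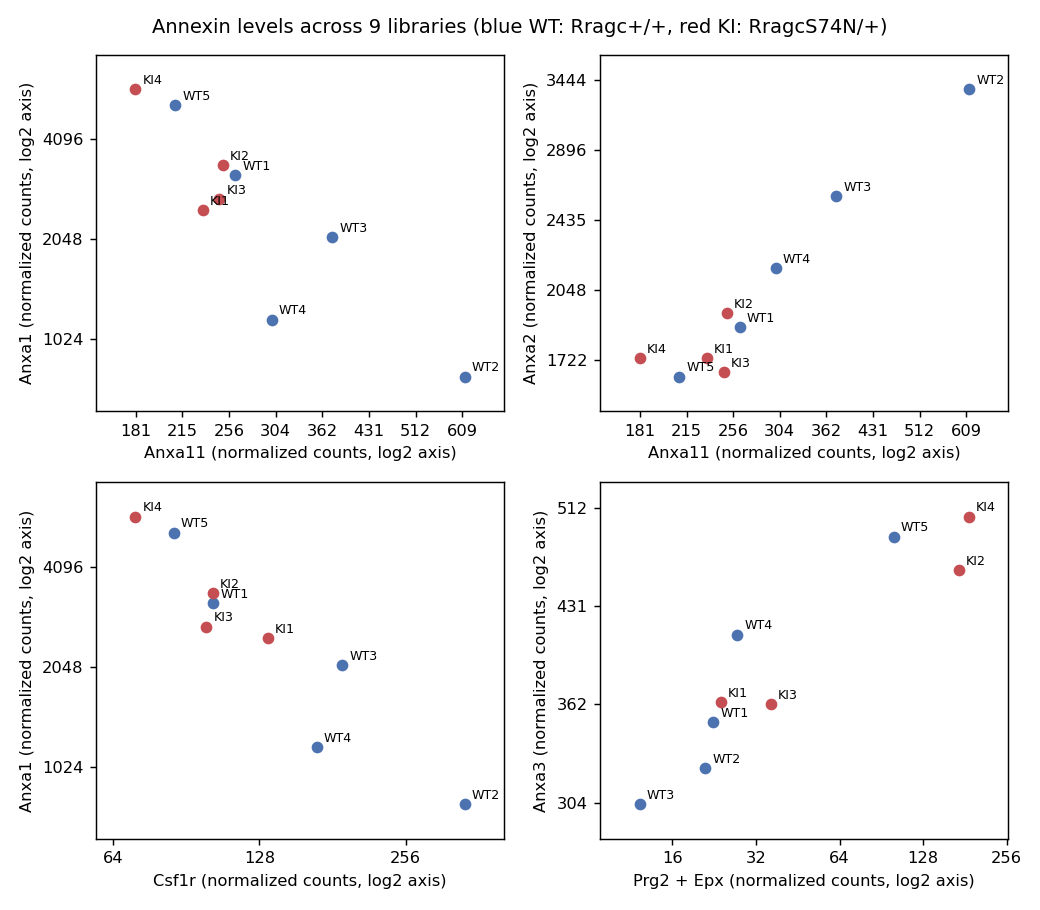
Levels in the 9 libraries (Rragc+/+ blue, labelled WT, RragcS74N/+ red, labelled KI, with replicate numbers), in normalized counts on log2 axes. The panels show Anxa1 and Anxa2 against Anxa11 and Anxa1 against Csf1r, the only monocyte marker listed. The last shows Anxa3 against the summed eosinophil genes Prg2 and Epx. Libraries of both genotypes lie along each trend, and Rragc+/+ replicate 2 is at the end of the first 3.

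The same order of libraries was found in other measures, whose values are set beside these results and whose part in them was not tested beyond what is given here. In bulk RNA, fewer cells of a type and less RNA per cell cannot be told apart. Of 6 monocyte markers sought, only Csf1r, the receptor for the macrophage growth factor, was listed. Csf1r alone cannot show whether monocyte content differed, so the relations below are with this gene only. It measured 103, 339, 189, 168 and 85.2 normalized counts in Rragc+/+ replicates 1 to 5 and 133, 103, 99.4 and 71.1 in RragcS74N/+ replicates 1 to 4. It was highest in the 3 wild-type libraries where Anxa2 exceeded Anxa1. Over the 9 libraries its r was -0.94 with Anxa1, 0.93 with Anxa2 and 0.96 with Anxa11 (exact permutation, adjusted p = 0.00285, 0.00926 and 0.00285 over 35 relations with marker scores), with a rho of -0.93, 0.80 and 0.90, of which that of Anxa2 did not pass (exact permutation, adjusted p = 0.0968). With the 2 farthest libraries left out these values of r were -0.90, 0.68 and 0.84. Removal of any 1 library left the relations with Anxa1 and Anxa11 past the threshold, and that with Anxa2 was lost without Rragc+/+ replicate 2 or 3.

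Anxa3 followed a different marker list. Of 5 eosinophil and basophil markers sought, the eosinophil granule genes Prg2 and Epx were listed, and their sum was 22.4, 21.0, 12.2, 27.3 and 100.3 normalized counts in Rragc+/+ replicates 1 to 5 and 23.9, 172, 36.15 and 187 in RragcS74N/+ replicates 1 to 4. The sum was high in RragcS74N/+ replicates 2 and 4 and Rragc+/+ replicate 5, the 3 libraries with the most Anxa3. Anxa3 and the mean log2 level of these genes had an r of 0.93 (exact permutation, adjusted p = 0.00592) and a rho of 0.87, and an r of 0.87 without the 2 farthest libraries. The relation fell short of the threshold without Rragc+/+ replicate 3, by Spearman's rho (exact permutation, adjusted p = 0.0526) and with columns rescaled to the same total, where r was 0.78 (exact permutation, adjusted p = 0.105). The remaining relations of these 35, with neutrophil, cell cycle and B cell scores among them, did not pass. Primary granule, T and NK cell and platelet markers were not listed, so those cells have no value here.

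Stage and red cell measures gave no relation past the threshold. The secondary granule, mature neutrophil and erythroid scores were each the mean log2 level of their listed genes. By Pearson's r, 0 of 21 relations with the members passed (exact permutation, smallest unadjusted p = 0.106, smallest adjusted p = 0.952). Spearman's rho also gave 0 of 21. Its smallest unadjusted p was 0.0369, for Anxa1 with the secondary granule score at a rho of 0.72 (exact permutation, adjusted p = 0.774). The summed level of the 6 erythroid genes, all listed, was 1090 to 5585 normalized counts in Rragc+/+ and 378 to 2147 in RragcS74N/+.

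Base composition moved with the members as well. For each library the slope of expression, relative to the mean of all libraries, on the GC content of the last 500 bases of each transcript was fitted over 6638 tested genes. Per 10 points of GC it was 0.03, 0.30, 0.11, 0.09 and -0.11 on the log2 scale in Rragc+/+ replicates 1 to 5 and -0.21, -0.07, -0.01 and -0.13 in RragcS74N/+ replicates 1 to 4. The 3 highest slopes were again those of Rragc+/+ replicates 2, 3 and 4. The slope had an r of 0.89 with Anxa2, 0.91 with Anxa11, 0.83 with Anxa6, 0.77 with Anxa5 and -0.80 with Anxa1, and these 5 of 7 relations passed (exact permutation, adjusted p from 0.00464 to 0.0287), but 0 of 7 passed without Rragc+/+ replicate 2. The GC content of the 3′ end itself was 54.6% for Anxa6, 51.2% for Anxa2, 44.6% for Anxa5 and 44.2% for Anxa11, above the median of 43.0% over tested genes, and 41.4% for Anxa7, 39.8% for Anxa3 and 37.4% for Anxa1, below it.

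After each library's GC trend was removed, 2 of the 21 pairs passed: Anxa1 with Anxa11, at an r of -0.86, and Anxa2 with Anxa11, at an r of 0.89 (exact permutation, adjusted p = 0.0346 for both). With the 2 farthest libraries left out, r was -0.80 for the first and 0.34 for the second, which thus rested on Rragc+/+ replicates 2 and 3, and by Spearman's rho 0 of 21 passed. Over all 9 libraries the other 3 pairs kept their sign. Their r was -0.72 for Anxa1 with Anxa2, 0.80 for Anxa11 with Anxa6 and 0.67 for Anxa2 with Anxa6. Without the 2 farthest libraries these values were -0.46, 0.23 and -0.53, so Anxa2 with Anxa6 reversed sign. The relations of Csf1r with Anxa1, Anxa2 and Anxa11 and of the eosinophil genes with Anxa3 passed by Pearson's r after the removal, with r of -0.91, 0.83, 0.84 and 0.91, but 0 of the 35 relations passed by Spearman's rho. With the 2 farthest libraries left out, the values of r were -0.85, 0.59, 0.62 and 0.83.

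**Figure D5:**
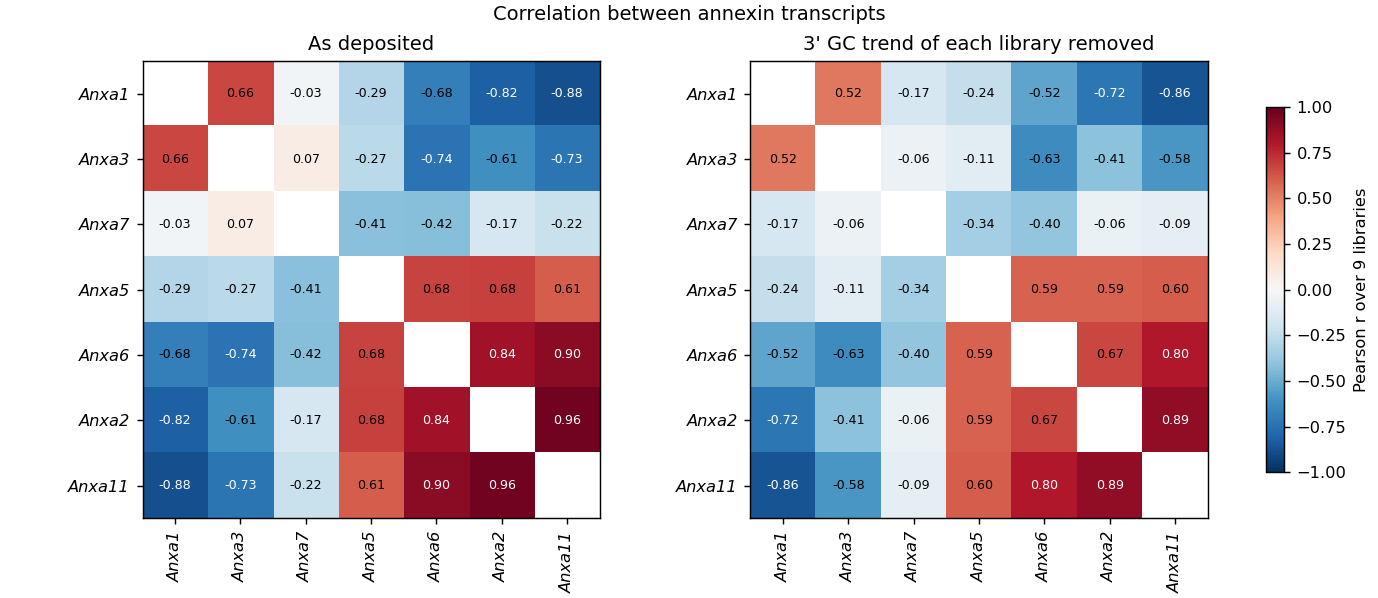
Pearson's r over 9 libraries for each pair of annexins, as deposited (left) and with the 3′ GC trend taken out per library (right), with red for positive and blue for negative values. Anxa2, Anxa11 and Anxa6 form a positive block opposite to Anxa1 in both, over the 9 libraries. The values nearest to 1 and -1 are those of Anxa11 with Anxa2 and with Anxa1. Without Rragc+/+ replicates 2 and 3, r of Anxa2 with Anxa6 was -0.05 as deposited and -0.53 with the trend removed.

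The first principal component over the 1000 most variable genes summarised the same order. Its r was 0.97 with Anxa11, 0.93 with Anxa2, 0.83 with Anxa6, -0.72 with Anxa3 and -0.94 with Anxa1, which are descriptions, since Anxa1 and Anxa6 are among the genes from which it was built. Without Rragc+/+ replicate 2 the first component held 38.4% of the variance, and its r was 0.80 with Anxa11, 0.65 with Anxa2, 0.51 with Anxa6, -0.80 with Anxa3 and -0.83 with Anxa1. The genes most like each leading member were sought among the 3474 others with a mean of at least 50. They were Sat1, Cox7c and Med31 for Anxa1, with r of 0.99, 0.99 and 0.98, Eif4e2, Rarg and Rara for Anxa2, with r of 0.99, 0.98 and 0.98, and Cycs, Pycard and Spcs1 for Anxa3, with r of 0.97, 0.96 and 0.95. Sat1 encodes an enzyme of polyamine breakdown, Cox7c a respiratory chain subunit and Med31 a Mediator subunit. Eif4e2 encodes a cap-binding protein and Rarg and Rara retinoic acid receptors. Cycs encodes cytochrome c, Pycard the inflammasome adaptor ASC and Spcs1 a signal peptidase subunit. These are the best of 3474 genes over 9 libraries and are given as descriptions, with no test. In the order given, their 3′ ends held 37.4%, 34.4% and 42% GC for Anxa1 and 46%, 54% and 59.8% for Anxa2. For Anxa3 they held 40.6%, 41.2% and 40%. Each lay on the same side of the median of 43.0% over tested genes as its member. The GC trend of libraries had not been removed, and its part was not tested.

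The partners and receptors through which annexins act were examined next. Of 61 genes on 6 lists of partners and 1 of further annexins, 46 were listed and 44 were tested, S100a4 and Alox15 being too low. None of the 44 passed limma's adjusted threshold, and 2 had an unadjusted p under 0.05, both lower in RragcS74N/+, beside 5.81% of all genes. The log2 difference was above 0 for 23 and below 0 for 21, with a median of 0.06. The 2 were Vamp2, a vesicle SNARE, with a difference of -1.02 ± 0.43 (SE), and Napa, which helps to take SNARE complexes apart, with -0.52 ± 0.21 (SE; limma, adjusted p = 0.713 for both). For Vamp2 the wild-type level was 18.2 ± 14.3 normalized counts (SD, n = 5) against 7.25 ± 2.35 (SD, n = 4) in the mutant, and the wild-type mean held 1 library, Rragc+/+ replicate 2, at 43.2. Without that library the log2 difference of Vamp2 was -0.66 and that of Napa -0.47, and neither had an unadjusted p under 0.05 in limma.

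The formyl peptide receptors that bind annexin A1 were abundant, and their genotype differences were smaller than the spread between libraries. Fpr1 measured 1499.7 ± 247 (SD, n = 5) and 1639 ± 248 (SD, n = 4) normalized counts, a log2 difference of 0.13 with a 95% interval of -0.24 to 0.50 (limma, adjusted p = 0.812), and Fpr2 measured 3663 ± 622 (SD, n = 5) and 3982 ± 1308 (SD, n = 4), a log2 difference of 0.08 with an interval of -0.38 to 0.55 (limma, adjusted p = 0.908). Among S100 proteins, the calcium-binding partners of annexins, S100a11, which binds annexin A1, measured 7162 ± 747 (SD, n = 5) and 6610.5 ± 1238 (SD, n = 4), and S100a6, a partner of annexin A11, measured 6846 ± 191 (SD, n = 5) and 7418 ± 1443 (SD, n = 4). Their log2 differences were -0.13 and 0.10 (limma, adjusted p = 0.818 and 0.860). S100a10, the partner of annexin A2, was not listed. Pdcd6, which encodes ALG-2 and binds annexin A11, differed by 0.23, and Sri, whose product sorcin binds annexin A7, by 0.11 (limma, adjusted p = 0.777 and 0.841).

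The rest of the lists are given by their counts. In granule docking and fusion 15 of 17 genes were tested, 6 with a positive and 9 with a negative difference. In membrane repair and ESCRT 10 of 13 were tested, 5 in each direction. In phosphatidylserine exposure and scrambling 8 of 9 were tested, 5 positive and 3 negative, and in the lipid mediator enzymes 6 of 10 were tested, 3 in each direction. The lowest adjusted p of any of these genes in limma was 0.713, which was also the lowest of all 6673 genes.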

How the data were processed

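Neutrophils were sorted from bone marrow of Rragc+/+ and RragcS74N/+ mice, and 3′-end libraries that carry molecular identifiers were sequenced. Of these libraries, 5 Rragc+/+ and 4 RragcS74N/+ ones were analysed here. The deposited table holds a signal: the authors used TopHat2 (version 2.0.10) to align reads to GRCm39 and HTSeq (version 0.6.1) for stranded gene counts, and the values are these counts divided by 1 size factor per library. Any collapse by molecular identifier, and the filter behind the list of genes, are not given in the sources used here. The study's text describes more RragcS74N/+ mice than the 4 libraries analysed here.

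All values were whole multiples of 1 read (100% within 0.001), which gave the recovered reads, and 1 read was worth 0.659 to 1.17 normalized counts. On the log2(value + 1) scale, limma (version 3.58.1, R 4.3.3) with trended moderation compared the genotypes over genes averaging 10 or more, and p-values were Benjamini-Hochberg adjusted (threshold 0.05). The recovered reads were also given to edgeR (version 4.0.16) and to DESeq2 (version 1.42.0). Correlations were tested by exact permutation over all pairings of 9 libraries. The GC content of transcript 3′ ends came from GENCODE transcripts of GRCm38, available for 99.5% of tested genes, and each library's trend on it was removed as a lowess curve. Promoters came from RefSeq GRCm38.p6. The limma comparison was checked on counts simulated with independent genes. These counts held no variation shared between genes. The check therefore cannot speak to shared shifts between libraries such as the first principal component.

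The members and lists were chosen with earlier results of these data known. All members are named, with partner genes that had an unadjusted p under 0.05, 7 known partners or receptors, and the 3 genes most like each of the 3 most abundant members. The alternatives varied the pseudocount, filter, scaling and moderation, used array quality weights or the count tools, or took out the GC trend or each library in turn. The GC-corrected correlations, the correlations with the GC slope and 5 of the marker scores were added after seeing the data.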

Additional observations from a re-analysis of the deposited data

Results flagged for a closer look

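Of 126 groups of values examined for a library that stood apart from its own genotype, 4 had a gap between the extreme library and the next that was large against the range of the group (Dixon's criterion), where chance alone would give about 1 in 20, or 6.3. The ratio of Anxa1 to Anxa2 in RragcS74N/+ replicate 4 was 3.35, the next being 1.77, a gap of 0.831 of the range. Vamp2 in Rragc+/+ replicate 2 was 43.2 normalized counts, the next being 15.9, a gap of 0.776 of the range. Xkr8, a phospholipid scramblase gene, was 31.9 normalized counts in Rragc+/+ replicate 3, the next being 24.1, a gap of 0.715 of the range. The B cell score, the mean log2 level of Ighm and Igkc, was 4.10 in Rragc+/+ replicate 2, the next being 4.77, a gap of 0.751 of the range.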

How the results depend on the processing

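Over 18 alternatives for each of the 7 listed members, 124 of 126 log2 differences kept their direction and 0 passed the adjusted threshold. The 2 that reversed were those of Anxa7, at -0.028 with array quality weights and at -0.013 without RragcS74N/+ replicate 4, in a range of -0.013 to 0.322 when 1 library at a time was left out. The cause was not tested. Those of Anxa1 ranged from 0.43 without Rragc+/+ replicate 2 to 1.11 without Rragc+/+ replicate 5. Members with an unadjusted p under 0.05 numbered 0 in limma, 1 with a filter at a mean of 50 (Anxa5), 2 with array quality weights (Anxa1 and Anxa11), 1 with edgeR and 1 with DESeq2 (Anxa11 in both), 1 after removal of the GC trend (Anxa5), and 0 to 3 when 1 library was left out, the 3 being without Rragc+/+ replicate 5. The share of all genes at that threshold moved as well, from 5.81% to 5.5% with the filter, 11.5% with the weights, 3.89% after removal of the GC trend, 3.01% without Rragc+/+ replicate 2 and 13.7% without Rragc+/+ replicate 5, and the counts are to be read against it. Partner genes at that threshold, read against the same shares, numbered 2. They numbered 0 with the filter at 50, under which Vamp2 and Napa were not tested. Array quality weights gave 5 and removal of the GC trend gave 1. Rescaled columns, moderation without a trend, edgeR and DESeq2 gave 3 each, beside 5.26%, 5.665%, 6.89% and 6.7% of all genes. When 1 library was left out they numbered 0 to 7, being 0 without Rragc+/+ replicate 2 and 7 without Rragc+/+ replicate 5. The share of reads differed by 0.0248 percentage points, by -0.0514 without Anxa1 and by -0.00963 to 0.0568 when 1 library was left out, the negative value being without RragcS74N/+ replicate 4. Pairs of members past the threshold in the exact permutation test numbered 5, against 0 by Spearman's rho, 8 with columns rescaled to the same total, 2 after removal of the GC trend and 0 to 7 when 1 library was left out. Fits without 1 library kept the genes chosen over all 9. No paired analysis was possible because replicate numbers are absent from the labels, and replicates were numbered in the order of deposit. Anxa6 and Anxa7 rested on as few as 32 and 40 reads in a library. Their coefficients of variation were 51.1% and 22.7%. Counting alone would give 13% and 12.6%, with each read taken as a separate molecule. On the log2 scale the 95% interval ran from -0.20 to 1.73 for Anxa1 and from -1.19 to 0.23 for Anxa6. The intervals of the other members were narrower, as from -0.22 to 0.57 for Anxa3. Each interval held moderate differences in at least some direction, so differences of that size remained possible with these 9 libraries.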
